A study of Solanum lycopersicum with 3 samples.

Results

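The light-sensing system of the tomato leaf primordium was examined through 10 genes, taken by locus identifier: the phytochromes PHYA, PHYB1, PHYB2, PHYE and PHYF, the cryptochromes CRY1a, CRY1b and CRY2, the transcription factor HY5, and DET1, the gene of the HIGH PIGMENT 2 locus. All 10 were listed among the 21717 loci of the table. RNA came from 1 group of 3 libraries of Solanum lycopersicum, genotype slmp (the growth notes name the allele slmp-1), under mock treatment. SlMP is the tomato counterpart of MONOPTEROS, an auxin response factor. Each library pooled 15 primordia from the fifth leaf, collected at stage P5, the fifth plastochron. Seedlings had days of 18 h light and 6 h dark, and water was sprayed on them 1 h ahead of sampling. No wild type and no contrast of light regimes is analysed here, so the values describe levels in the mutant under 1 light regime. The labels do not say whether the pools came from separate plantings, so the spread between libraries may be technical in part. In bulk tissue, fewer cells expressing a gene and less RNA per cell cannot be told apart.

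Phytochromes are red and far-red photoreceptors that switch between an inactive and an active form when they absorb light, and the active form enters the nucleus and removes phytochrome-interacting factors, which are growth-promoting transcription factors. Cryptochromes absorb blue and ultraviolet-A light and inhibit the ubiquitin ligase that contains COP1. HY5 is a bZIP transcription factor that promotes the light programme of seedlings and leaves and is degraded through COP1 in darkness. DET1 works with DDB1 and CUL4 in a ubiquitin ligase complex that represses light responses, and tomato plants with weak DET1 alleles carry high-pigment fruit.

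The locus totals behind the values were 2746410, 2574146 and 2499843 reads in replicates 1, 2 and 3, taking 1 step of the scaled values as 1 read. Scaled values are read counts divided by 1 factor per library, and 1 step equals 0.948, 1.04 and 1.08 scaled units in the 3 libraries. The kit reads the 3′ ends of transcripts, which gives about 1 fragment per transcript whatever its length, so levels of different genes are compared on the scaled values without division by length. Such comparisons still depend on how well each 3′ end is annotated. Tissue identity was checked on loci recorded as markers from general knowledge. Of 6 leaf primordium and leaf polarity loci, 5 reached at least 10 scaled units in each library, with means up to 959.6 and a lowest mean of 6.47. Of 3 recorded fruit ripening loci, the table lists 1, at 2.84, 0 and 0 in replicates 1, 2 and 3. It lists none of 3 floral organ and pollen loci. Not being listed does not by itself show that a gene is not expressed.

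Of the 10 genes, 9 were detected, meaning at least 10 scaled units in each library. Of all loci, 68.7% met that minimum. The exception was PHYB2, which lay just under it. The 10 genes together took 242.9, 280.5 and 291.6 scaled units of every 1000000 units of locus signal in replicates 1, 2 and 3. Their median level was 47.6, against 33.3 for all loci and 59.96 for detected loci. Above the median of all loci lay 7 genes, and above that of detected loci lay 3.

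PHYA (Solyc10g044670), the light-labile phytochrome that mediates responses to far-red light, was the highest phytochrome. Its scaled value was 159.2 in replicate 1, 236.8 in replicate 2 and 198.3 in replicate 3, a mean of 198.1 ± 38.8 (SD, n = 3). Its mean stood at percentile 88.7 of all loci, and all 3 libraries exceeded every library of each other phytochrome. PHYB1 (Solyc01g059870), the phytochrome through which tomato seedlings mainly respond to red light, came next among phytochromes. It was at 61.6, 92.4 and 67.9 in replicates 1, 2 and 3, with a mean of 74.0 ± 16.3, at percentile 70.7. PHYA and PHYB1 both had their highest value in replicate 2 and their lowest in replicate 1.

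PHYE (Solyc02g071260) and PHYF (Solyc07g045480) are light-stable phytochromes of lower level in these libraries. PHYE measured 42.7, 40.5 and 64.6 in replicates 1, 2 and 3, a mean of 49.3 ± 13.4 (SD, n = 3), at percentile 60.4. Replicate 3 stood above the other libraries, which were close to each other. PHYF measured 26.5, 24.9 and 15.1, a mean of 22.2 ± 6.20, at percentile 39.98. Here replicate 3 was the lowest, so PHYE and PHYF departed in opposite directions in that library.

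PHYB2 (Solyc05g053410), the closest tomato relative of PHYB1 and partly redundant with it, was the lowest of the 10 genes. It measured 9.48, 9.35 and 10.8 in replicates 1, 2 and 3, a mean of 9.87 ± 0.789 (SD, n = 3), at percentile 23.9. These values rest on 10, 9 and 10 reads. The exact 95% Poisson interval in replicate 1 ran from 4.55 to 17.4 scaled units, so a detection call at 10 cannot be settled at this depth. In the SLM_r2.1 assembly PHYB2 is overlapped by 3 other RefSeq genes, 1 of them protein-coding, and DET1 by 1 long non-coding RNA gene. No strand setting of the counting is given, and whether the annotation used for counting holds these overlapping genes is not known here, so the values of PHYB2 and DET1 are less certain than those of the other 8 genes, which no RefSeq gene overlaps.

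Among the cryptochromes CRY1a was the most abundant. CRY1a (Solyc04g074180), which mediates blue-light inhibition of stem elongation in tomato seedlings, measured 188.6, 171.4 and 238.1 in replicates 1, 2 and 3, a mean of 199.4 ± 34.7 (SD, n = 3), at percentile 88.8. CRY2 (Solyc09g090100), a nuclear blue-light receptor, measured 39.8, 54.0 and 57.1, a mean of 50.3 ± 9.22, at percentile 61.0. CRY1b (Solyc12g057040), the paralogue of CRY1a, measured 47.4, 35.3 and 55.0, a mean of 45.9 ± 9.91, at percentile 58.4. The lowest CRY1a library was above every library of CRY2 and CRY1b, whereas the ranges of CRY2 and CRY1b overlapped.

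HY5 (Solyc08g061130) and DET1 (Solyc01g056340) act in opposite directions on light responses. Both lay near the middle of all loci but lower among detected loci, at percentiles 36.1 and 25.55 of the latter. HY5 measured 26.5 in replicate 1, 48.8 in replicate 2 and 50.6 in replicate 3, a mean of 42.0 ± 13.4 (SD, n = 3), at percentile 56.1. Replicate 1 stood apart from the other libraries, which were close to each other. The exact 95% Poisson intervals, 17.6 to 38.4 in replicate 1 and 35.9 to 64.9 in replicate 2, overlapped slightly. Such an overlap does not by itself show equal levels. The SD of log2(value + 1) was 0.51, against 0.23 from counting alone at these read numbers, and the difference between libraries was not tested. DET1 measured 30.3, 36.4 and 28.01, a mean of 31.6 ± 4.30, at percentile 48.8.

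**Figure D1:**
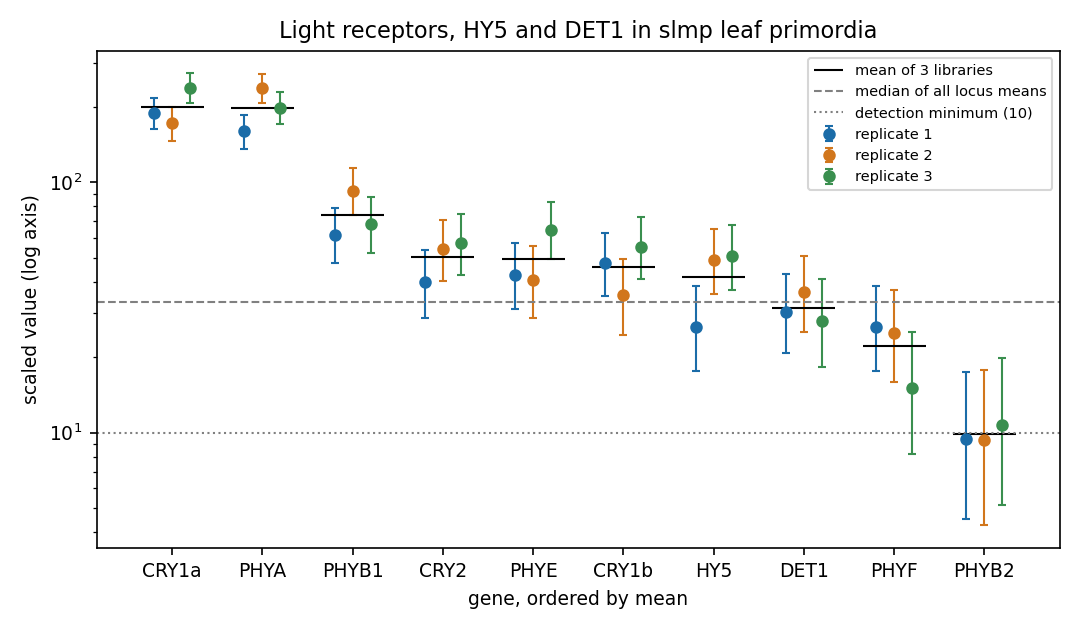
Scaled value (log axis) of each gene in replicates 1, 2 and 3 of slmp leaf primordia, with exact 95% Poisson intervals from the read numbers as bars and the mean over libraries as a black line. CRY1a and PHYA lie highest near 199.4 and 198.1, and PHYB2 lies lowest at 9.87, on the dotted detection minimum of 10; the dashed line is the median of all locus means, 33.3.

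The order of the means was CRY1a, PHYA, PHYB1, CRY2, PHYE, CRY1b, HY5, DET1, PHYF and PHYB2. Of the 9 neighbouring pairs in this order, 4 kept their order in every library with ranges that did not overlap: PHYA above PHYB1, PHYB1 above CRY2, DET1 above PHYF, and PHYF above PHYB2. CRY1a and PHYA could not be ordered, because CRY1a was higher in replicates 1 and 3 and lower in replicate 2. CRY2, PHYE, CRY1b and HY5 formed a group whose neighbours changed order between libraries, and HY5 and DET1 did so as well. In replicate 1 HY5 and PHYF held the same number of reads, 28. Over all 45 pairs of the 10 genes, 36 had the same order in every library and 34 had ranges that did not overlap. The means of these genes ran from 9.87 to 199.4, and the share for pairs of other loci was not computed.

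The makeup of the phytochrome family was similar in the 3 libraries for its main members. PHYA made up 53.2%, 58.6% and 55.6% of the summed phytochrome value in replicates 1, 2 and 3, a mean of 55.8% ± 2.73 (SD, n = 3). The exact Clopper-Pearson 95% interval for replicate 1 was 47.5% to 58.8%, and it overlapped those of the other libraries. PHYB1 made up 20.8% ± 1.94 and PHYB2 2.83% ± 0.456. PHYE had the widest share SD of the family. It made up 14.2%, 10.03% and 18.1% in replicates 1, 2 and 3, a mean of 14.1% ± 4.05, with intervals of 7.23% to 13.4% in replicate 2 and 14.1% to 22.7% in replicate 3 that did not overlap. PHYF made up 8.86%, 6.17% and 4.23%, a mean of 6.42% ± 2.33, with intervals of 5.97% to 12.5% in replicate 1 and 2.33% to 6.995% in replicate 3 that overlapped. Overlap of such intervals does not by itself show equal shares. These intervals cover counting error only and take each read as independent. Reads were not collapsed by molecular identifier as far as the labels say, so the intervals may be too narrow.

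CRY1a held 68.4%, 65.7% and 68.0% of the summed cryptochrome value in replicates 1, 2 and 3, a mean of 67.4% ± 1.43 (SD, n = 3). CRY2 held 17.2% ± 3.23 and CRY1b 15.5% ± 1.83. Which of these minor members was larger differed between libraries: CRY1b led CRY2 in replicate 1, at 17.2% against 14.4%, and CRY2 led in replicate 2, at 20.7% against 13.5%.

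**Figure D2:**
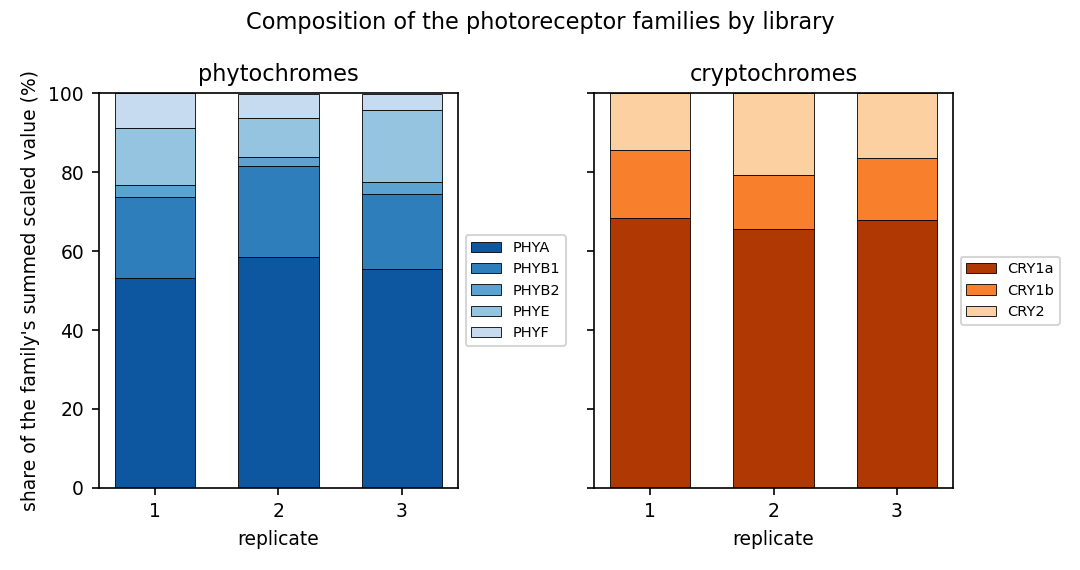
Share (%) of each phytochrome (left, blue) and each cryptochrome (right, orange) in the summed scaled value of its family, 1 bar per replicate. PHYA takes 53.2% to 58.6% of the phytochrome bar and CRY1a 65.7% to 68.4% of the cryptochrome bar in every library.

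Ratios between genes were taken within each library, where a scaling factor cancels. PHYB1 exceeded PHYB2 by 6.50, 9.89 and 6.30 times in replicates 1, 2 and 3, a log2 ratio of 2.77 ± 0.353 (SD, n = 3) with a pseudocount of 1. The exact 95% counting interval of this ratio was 3.32 to 14.2 in replicate 1, so its size is loosely set by the few PHYB2 reads. The ratio of PHYA to PHYB1 was the tightest, at 2.58, 2.56 and 2.92, a log2 ratio of 1.41 ± 0.104. CRY1a exceeded its paralogue CRY1b by 3.98, 4.85 and 4.33 times, a log2 ratio of 2.10 ± 0.139, and exceeded CRY2 by 4.74, 3.17 and 4.17 times, a log2 ratio of 1.97 ± 0.291. Each of these ratios was on the same side of 1 in 3 of 3 libraries.

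The remaining ratios were less even. PHYE exceeded PHYF by 1.61, 1.62 and 4.29 times, so the mean log2 ratio of 1.12 ± 0.784 (SD, n = 3) rested largely on replicate 3, and it was 0.67 without that replicate. In replicates 1 and 2 the counting intervals of this ratio, 0.981 to 2.68 and 0.953 to 2.83, included 1. HY5 over DET1 was 0.875, 1.34 and 1.81, a log2 ratio of 0.35 ± 0.512, with HY5 lower in replicate 1 and higher in the other libraries. That log2 ratio was 0.62 without replicate 1 and 0.11 without replicate 3, so no order of HY5 and DET1 is set by these libraries. The summed phytochromes, at 353.4 ± 52.3, exceeded the summed cryptochromes, at 295.6 ± 47.9, by 1.09, 1.55 and 1.02 times, and the mean log2 ratio of 0.26 ± 0.325 was 0.07 without replicate 2. The counting intervals of that ratio included 1 in replicate 1, at 0.923 to 1.28, and in replicate 3, at 0.871 to 1.19. In replicate 2 the interval, 1.32 to 1.82, did not. The exact 2-sided sign-flip permutation test over 3 libraries cannot give a p below 0.25. It gave 0.25 (adjusted over the 7 ratios, 0.292) for each ratio except HY5 over DET1, where p was 0.5 (adjusted 0.5) in the same exact test, so none of the 7 could pass a threshold of 0.05 in this design.

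**Figure D3:**
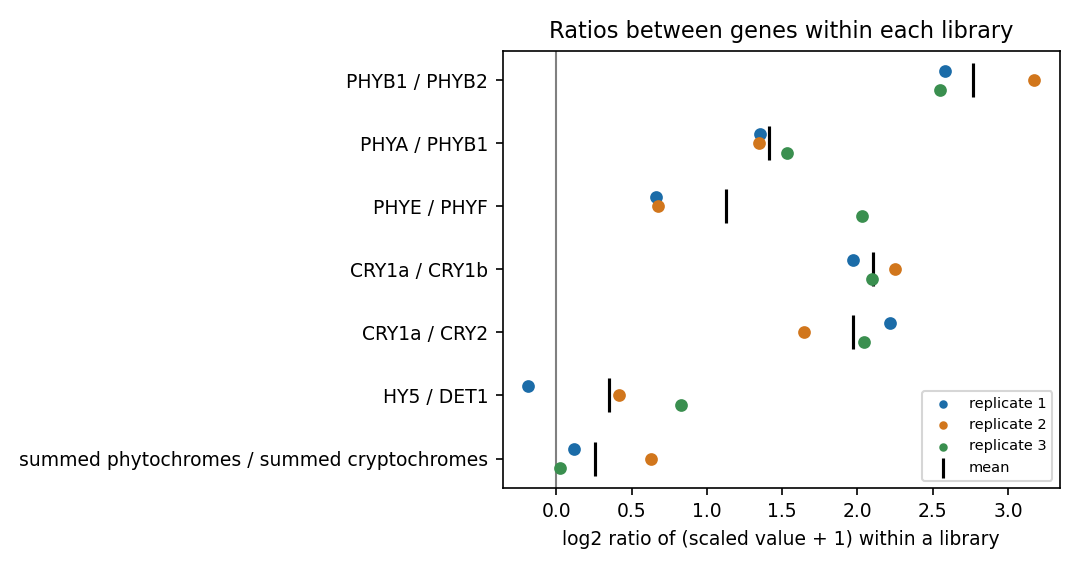
Log2 ratio of scaled values (pseudocount 1) between genes, or between family sums, within each library; points are replicates and black ticks their mean, and the grey line at 0 marks equal levels. PHYA over PHYB1 clusters near 1.41, PHYE over PHYF is split by replicate 3, and HY5 over DET1 lies on both sides of 0.

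The spread of the 9 detected genes lay between percentiles 22.8 and 82.1 of loci of the same level. The SD of log2(value + 1) ranged from 0.19 for DET1 to 0.51 for HY5 among the 9 detected genes, with a median of 0.30, against 0.27 for all detected loci. HY5 was the most variable of the 10. Its SD stood at percentile 82.1 of the 1000 loci nearest in level, whose median was 0.30, and it was 0.04 without replicate 1. PHYF followed at 0.42, percentile 60.7 of its nearest loci, and fell to 0.06 without replicate 3. PHYE was at 0.36, percentile 65.5, and was 0.05 without replicate 3. DET1, at 0.19, stood at percentile 22.8 of its nearest loci, and its SD was 0.08 without replicate 2. Counting alone would give 0.26 at its read numbers, so its low SD is not resolved from counting noise.

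The SDs of the other detected receptors ranged as follows when each library was left out in turn. PHYA, at 0.29, ranged from 0.18 to 0.40. PHYB1, at 0.30, ranged from 0.10 to 0.41 and was lowest without replicate 2. CRY1a, at 0.24, ranged from 0.10 to 0.33, CRY1b, at 0.32, from 0.15 to 0.44, and CRY2, at 0.27, from 0.06 to 0.36, with the lowest values without replicates 3, 2 and 1. With 3 values, leaving out the one farthest from the closest pair always lowers the SD. The SD of PHYA was wider than the 0.10 that counting alone would give at its read numbers. PHYB2, at 0.10, was below the 0.46 of counting alone, so its small SD says nothing about a steady level. A highest value at least 1.5 times the lowest was seen at 5 of the 9 detected genes (PHYB1, PHYE, PHYF, CRY1b and HY5), against 44.1% of detected loci. PHYB1, at 1.5004 times, only just met this limit, and PHYA, at 1.487 times, only just missed it.

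**Figure D4:**
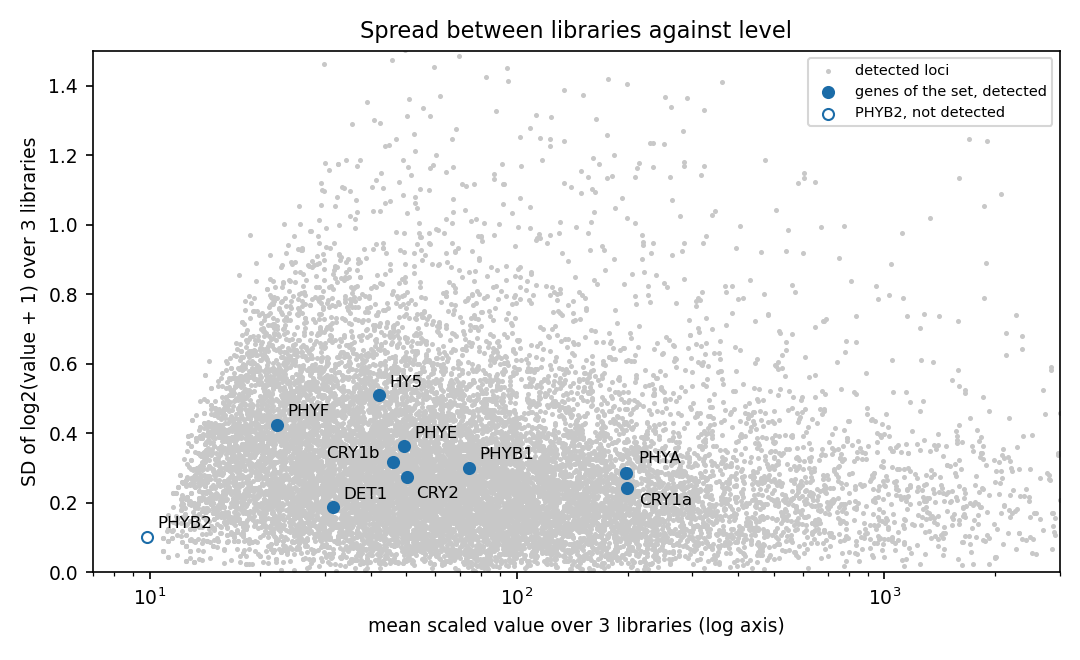
SD of log2(value + 1) over the 3 libraries against the mean scaled value (log axis) for the detected loci (grey; 111 loci beyond a mean of 3000 or an SD of 1.5 are not drawn) and the 10 genes (blue, PHYB2 as an open circle). HY5 is the most variable at 0.51, and DET1 has the lowest value of the detected genes at 0.19, below the 0.26 that counting alone would give.

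The genes did not move together from library to library. Of the 9 detected genes, 4 had their lowest value in replicate 1 (PHYA, PHYB1, CRY2 and HY5), 3 in replicate 2 (PHYE, CRY1a and CRY1b) and 2 in replicate 3 (PHYF and DET1). The corresponding shares of all detected loci were 29.3%, 33.3% and 37.3%. The highest value was in replicate 1 for 1, in replicate 2 for 3 and in replicate 3 for 5 of the 9, against 27.3%, 36.2% and 36.5% of detected loci. A correlation over samples was not computed, since 3 libraries are too few.

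Other light-signalling loci were recorded from general knowledge of the tomato locus numbering, and no source used here pairs their identifiers with names. Of 18 recorded loci the table lists 14, of which 11 were detected, with a median level of 55.0 over the 14. The highest was Solyc11g072710 at 178.9 ± 85.4 (SD, n = 3), then Solyc02g021650 at 148.3 ± 32.4, and the lowest were Solyc03g115540 at 2.40 ± 0.725 and Solyc10g008160 at 4.28 ± 4.27. The 3 listed loci recorded as COP1, DDB1 and CUL4, the partners through which HY5 is degraded and DET1 acts, lay between 86.0 and 148.3, each above both HY5 and DET1 in mean. The 2 listed loci recorded as phototropins, blue-light receptors of a family apart from cryptochromes, had means of 133.7 and 178.9. Of the 3 loci recorded as Golden2-like and B-box factors, which act downstream of light on chloroplast development and pigments, 1 was detected, and their means ran from 4.28 to 56.5.

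The loci recorded as phytochrome-interacting factors had a wider spread between libraries than the 9 detected genes, with a median SD of 0.87 against 0.30 on the log2 scale. They summed to 187.7, 122.6 and 414.8 in replicates 1, 2 and 3, over 6 listed loci, a highest sum 3.38 times the lowest. Each of the 5 detected loci had its highest value in replicate 3 and its lowest in replicate 2, where 36.5% and 33.3% of detected loci had theirs. This order was not limited to them, though it was less regular in the other classes. Of all 11 detected other light-signalling loci, these 5 included, 10 were highest in replicate 3 and 8 lowest in replicate 2. Of the 3 loci recorded as COP1, DDB1 and CUL4, 2 were highest in replicate 3 and 1 was lowest in replicate 2. Both phototropin loci were highest in replicate 3 and 1 of them was lowest in replicate 2, with a median SD of 0.50. The single detected Golden2-like or B-box locus was highest in replicate 3 and lowest in replicate 2, with an SD of 0.67. The SDs of the 5 loci recorded as phytochrome-interacting factors ran from 0.62 to 1.29 on the log2 scale. Without replicate 3 their sums differed by 1.53 times and their median SD was 0.55. The summed phytochromes had another order than these loci. They were lowest in replicate 1 at 299.5, highest in replicate 2 at 404.0 and at 356.6 in replicate 3. PHYA and PHYB1 made up most of that sum, with mean shares of 55.8% and 20.8%. PHYE, and PHYB2 on few reads, were instead lowest in replicate 2 and highest in replicate 3, while PHYF was lowest in replicate 3. The summed cryptochromes, at 275.8, 260.7 and 350.2, had the same order as the loci recorded as phytochrome-interacting factors, lowest in replicate 2 and highest in replicate 3. The difference in spread between the lists was not tested.

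**Figure D5:**
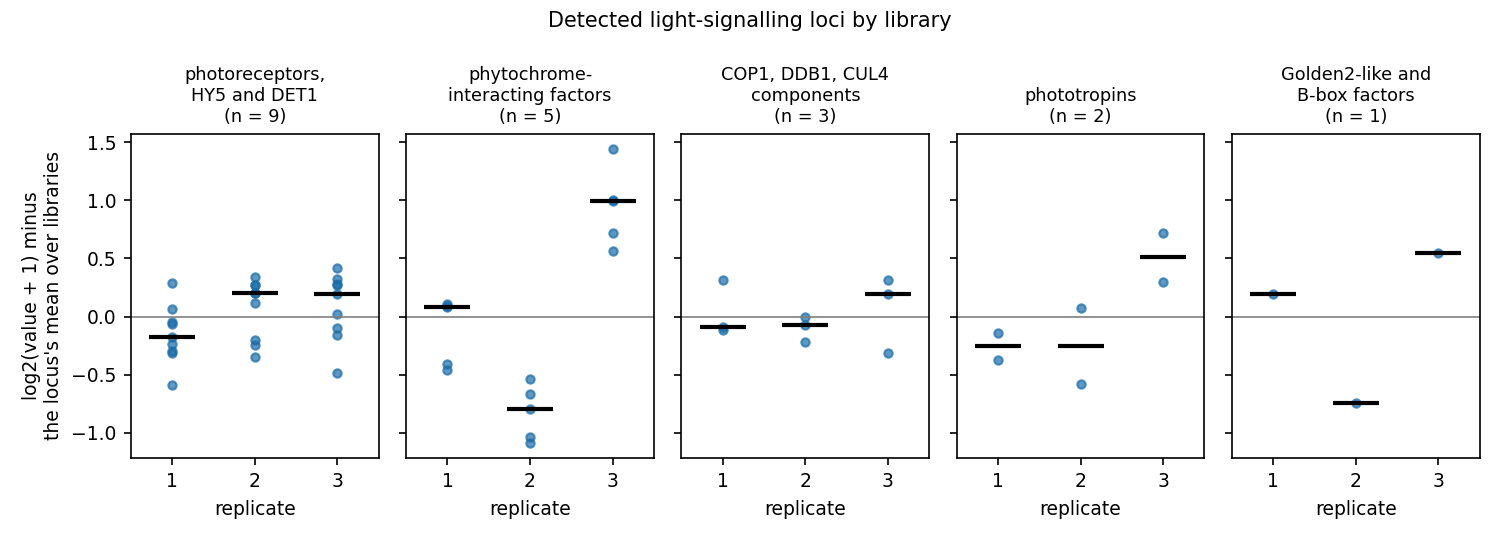
Deviation of log2(value + 1) from the mean of the same locus across its 3 libraries, by replicate, for the 9 detected genes of the set and for detected loci recorded in 4 other light-signalling classes; points are loci and black bars class medians (the single locus in the last panel). The 5 loci recorded as phytochrome-interacting factors are all highest in replicate 3 and lowest in replicate 2, while the 9 genes do not share an order.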

How the data were processed

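RNA was measured in 3 libraries of 1 group, with replicate numbers from the labels. The authors deposited signal values, called scaled values: each column is made of whole multiples of 1 step (tolerance 0.001 of a step), and no value of 1 step occurs. Bowtie2, HTSeq and DESeq2 are named, without versions or roles, per the submitters' processing notes; of build, annotation release and strand setting, none is stated there. No count model was fitted. Summary rows of the counting program, 22.2%, 2.58% and 23.3% of the scaled total for reads without a feature, ambiguous reads and reads of low alignment quality, were left out of every value.

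Computed here were means and SDs, exact Poisson and Clopper-Pearson 95% intervals from steps, percentiles among loci, SDs of log2(value + 1), and 7 within-library ratios with an exact sign-flip permutation test, adjusted by Benjamini-Hochberg. The spread percentile was taken among the 1000 loci nearest in mean. Fold changes with a pseudocount understate those of low genes. Gene names come from the rule that chose the genes; all 10 names are RefSeq symbols of SLM_r2.1 on the chromosome that the identifier gives, and 0 of its rows hold the identifiers themselves. None of the 10 was within 3% of a neighbouring locus in every library. All 10 genes are reported; other loci are given by class, with the 2 highest and 2 lowest by identifier. The genes and lists were chosen with earlier results of these data known. Promoter motifs and protein comparisons are not analysed here. Alternatives were other scalings, pseudocounts, detection minima and leaving out each replicate. Python 3.11.15, numpy 2.4.6, pandas 2.3.3, SciPy 1.17.1 and matplotlib 3.10.9 were used.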

Additional observations from a re-analysis of the deposited data

Results flagged for a closer look

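Reads that the counting program assigned to no locus are outside every value above. In the library with the least of each, they made up 21.2% of the scaled total for reads without a feature, 2.43% for ambiguous reads and 21.4% for reads of low alignment quality. Whether any of them belong to PHYB2 or DET1, which other genes overlap, was not tested. With 3 libraries no test for an outlying library was made.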

How the results depend on the processing

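Of 251 combinations of a result and an alternative, 232 were labelled the same and 19 moved. A count of detected genes or loci was the same within 1.5 times, and an SD within 50% of its value. Other results had to stay on the same side or within the spread between libraries. The level of a gene, or its share in its family, could not leave that spread when 1 of 3 libraries was left out. Nor could a level when the median was taken, so those combinations were fixed in advance. A ratio with the same direction in every library cannot change it with another pseudocount or with a replicate left out. Only HY5 over DET1 could have done so, and its mean log2 ratio kept its direction in each alternative. The number of detected genes was 10 at a minimum of 5, 8 at a minimum of 20 and 9 under each other scaling and without any 1 replicate. With a replicate left out that number was fixed in advance, since PHYB2 was under 10 in both replicate 1 and replicate 2. The moves were of 2 kinds. Among detected loci only, percentiles of all 10 genes fell, for example to 83.7 for CRY1a and 36.1 for HY5, because fewer loci at low levels are ranked. The SD of 9 genes fell by over 50% of its value when 1 library was left out, as given beside the results above for 8 of them, and that of PHYB2 fell to 0.01 without replicate 3. PHYB2 rests on 29 reads in all and is limited by depth. No paired analysis was possible because there is only 1 group, with no partner group to pair with.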
